A study of Mus musculus with 11 samples.

Results

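ZEB2 and its relative ZEB1 are zinc-finger transcription factors known in epithelial cells for silencing a set of genes that hold epithelial sheets together. The subject here is 9 of those genes, as classically listed, in macrophages (macs) with and without Zeb2, the factor that the study deleted. The 9 are Epcam, Cdh1, Krt8, Krt18, Krt19, Cldn7, Esrp1, Ocln and Tjp1, out of 27998 genes in the tables, and every gene of that list was kept. The study itself had singled out Epcam in some of these libraries, so the direction of Epcam is not independent evidence here. The 9 and the other gene lists used here were chosen with earlier results of these data known. Directions and p-values of listed genes are therefore not independent evidence either.

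Single-cell RNA-seq with 3′ counting of unique molecular identifiers (UMIs) was carried out on macs sorted from 5 tissues, with 1 WT and 1 Zeb2KO library for each. These were microglia from brain, colon macs (CMs), Kupffer cells (KCs, the resident macs of liver), alveolar macs (AMs) from lung and splenic macs (SMs). The WT mice were Zeb2fl/fl, in which the floxed gene stays intact without Cre, and the Zeb2KO mice carried Fcgr1-cre with Zeb2fl/fl by the labels. The methods and figure legends of the study instead name Itgax-cre in lung and Clec4f-cre in liver for these sorts, and Fcgr1-cre elsewhere. The labels and the study thus disagree. An additional WT KC library came from Nr1h3fl/fl mice and gave a comparison without Zeb2 deletion. No ages are given in the labels. By the methods, KCs were sorted as Clec4F+ CD64+ F4/80+ cells, AMs as CD11c+ SiglecF+ F4/80+ CD64+ cells, microglia as CD45int F4/80+ CD64+ cells, and CMs and SMs as CD64+ F4/80+ cells without Ly6C, Ly6G or SiglecF, so that none of the 9 was used in a gate. By the methods, controls were littermates, the Cre lines also act outside macs, and the floxed allele still makes a truncated mRNA with its 3′ end, so that Zeb2 UMIs do not report the deletion. The study reported cells that kept a Zeb2 allele in all Zeb2KO tissues but brain. It used genomic PCR for this in liver and lung, and presumed it in spleen and colon. The study reported higher Siglecf in CMs and SMs that lacked Zeb2, so a gate without SiglecF could have left out such cells. AMs were gated on SiglecF. Gate and, by the study, Cre line varied with tissue, so their parts in differences between tissues cannot be told apart.

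After filtering, 2825 to 6974 macs were left per library, with 7435158 to 43025649 UMIs. All 10 general macrophage markers had a UMI in each library. All 10 reached 20 CPM in every library but AM WT (6 of 10) and AM Zeb2KO (9 of 10). AMs had all 6 of their own markers at 20 CPM or more, microglia all 6 and KCs all 5. At most 1.45% of the barcodes of the smaller library were shared between any 2 libraries. Levels are CPM, the UMIs of a gene scaled to a total of 1000000 UMIs over the macs of a library, with exact Poisson 95% intervals that cover counting error only. With 1 library per tissue and genotype there was no replicate error and no test within a tissue. Calls were made on log2 of CPM with 1 added. A gene was called when Zeb2KO and WT differed there by 1 or more and the higher library reached 5 CPM. Genes that reached 5 CPM in at least 1 library of a pair are the genes considered.

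In epithelia the members do different jobs. Cdh1 (E-cadherin) and Epcam are surface adhesion molecules, and Cldn7 (a claudin), Ocln (occludin) and Tjp1 (ZO-1, the scaffold beneath them) belong to tight junctions. Krt8 and Krt18 pair to form the keratin filaments of simple epithelia, Krt19 is a further simple-epithelium keratin, and Esrp1 is a splicing factor of epithelial transcripts. ZEB factors bind E-box sequences of the form CACCTG, or CAGGTG on the other strand. ZEB repression of Cdh1 through such boxes is the textbook case.

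All 9 members are protein-coding genes in the GENCODE M21 annotation of GRCm38, the build the libraries were mapped to. Krt8 (chromosome 15, 101996698 to 102004482, minus strand) and Krt18 (chromosome 15, 102028180 to 102032027, plus strand) are neighbours with 23697 bases between them. Epcam lies on chromosome 17 at 87635979 to 87651129. Promoter sequence from RefSeq is described for 5 members (Epcam, Krt18, Cldn7, Ocln and Tjp1). Of the promoters of all genes, 17.2% of 32851 held at least 1 CACCTG on either strand in the 250 bases before the start, and 2.06% held 2 or more. Epcam and Krt18 are shown as examples of members that were higher in Zeb2KO AMs and held the box. Capitals mark CACCTG or its reverse complement CAGGTG, and the sequences run 5′ to 3′ on the strand of the gene in GRCm38.p6.
Epcam, chr17:87635729-87635978, plus strand: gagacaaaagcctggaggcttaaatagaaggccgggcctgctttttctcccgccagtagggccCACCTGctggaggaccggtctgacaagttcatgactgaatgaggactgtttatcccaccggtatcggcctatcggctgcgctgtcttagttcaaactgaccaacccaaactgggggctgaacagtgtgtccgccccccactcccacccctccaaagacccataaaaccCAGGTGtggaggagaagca
Krt18, chr15:102027966-102028179, plus strand: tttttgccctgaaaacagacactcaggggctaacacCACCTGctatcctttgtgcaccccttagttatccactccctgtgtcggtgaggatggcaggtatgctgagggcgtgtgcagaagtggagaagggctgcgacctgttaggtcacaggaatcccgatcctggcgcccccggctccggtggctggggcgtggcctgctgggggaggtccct
Epcam held 2 boxes, which began 187 and 19 bases before its start. Krt18 held 1 box, 214 bases before its RefSeq start and 178 bases before the GENCODE start given above. The second of the promoters listed for Cldn7 and for Ocln held 2 boxes each, while the first of each and the Tjp1 promoter held none. A match is a run of letters and not a measured binding site. Cldn7 and Ocln, which were not called in any tissue, thus also held it.

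The AM pair held the 3 members that were called higher, Epcam, Krt8 and Krt18. Of the 9, 6 were considered in AMs and none was called lower. Over all genes considered in that pair, 5.03% were called higher and 7.19% lower. Krt8 and Krt18 were under 5 CPM in WT AMs, so they were considered only through Zeb2KO and could not be called lower. The count of members is therefore a description and is not read against these shares. Epcam stood at 24.0 CPM (22.2 to 25.9) in WT AMs and at 346 CPM (340 to 352) in Zeb2KO AMs, a ratio of 14.4 with a counting interval of 13.3 to 15.6. In the other libraries Epcam was at 0 in microglia WT and 0.06 CPM (1 UMI) in microglia Zeb2KO, 3.58 and 7.63 CPM in CMs, 0.13 and 0.36 CPM in KCs, and 0.27 and 2.98 CPM in SMs, and it had 0 UMIs in the Nr1h3fl/fl KC library. The Zeb2KO AM library was the only one above 100 CPM. The 19 cells of other types in the WT lung were too few to give a background share for the 24.0 CPM of WT AMs, and how much of that was free RNA was not tested.

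The keratin pair had a different starting point. Krt8 had 7 UMIs in 6974 WT AMs (0.26 CPM, 0.10 to 0.53) and 9004 UMIs in 6251 Zeb2KO AMs (242 CPM, 237 to 247). The ratio was 947, with a counting interval of 459 to 2356. Krt18 had 3 UMIs in WT AMs and 1446 in Zeb2KO AMs (0.11 and 38.8 CPM), a ratio of 355 with an interval of 121 to 1723. In every other library Krt8 stayed at or below 7.95 CPM and Krt18 at or below 1.32 CPM. Microglia had no Krt8 UMI and SMs had neither Krt8 nor Krt18 in either genotype.

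Krt19 behaved unlike its keratin relatives. It was already the highest member in WT AMs, with 15049 UMIs (548 CPM, 540 to 557), and it was at 484 CPM (476 to 491) in Zeb2KO AMs, a log2 ratio of -0.18. Outside lung it reached 7.90 CPM in CM WT and 5.85 CPM in CM Zeb2KO and had at most 3 UMIs elsewhere. Ocln was at 10.9 CPM in WT and 9.15 CPM in Zeb2KO AMs. At 1000 UMIs per cell it was detected in 1.25% and 0.96% of these AMs and in 0 of 19 and 0 of 25 cells of other types, too few to give a background share, so how much of it was free RNA was not tested.

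Cdh1, the textbook ZEB target, was detected in WT AMs at 42.4 CPM (40.05 to 44.96) and in Zeb2KO AMs at 74.8 CPM (72.1 to 77.7). The ratio of 1.76 (1.65 to 1.89) had a log2 ratio of 0.80, under the size needed for a call, and with TMM factors the log2 ratio was 1.07 and it was called. The median log2 ratio of all genes considered in the AM pair was -0.29, and TMM factors moved the log2 ratio of CPM in that pair by 0.27, less once 1 is added to low levels. Cldn7 (20 and 103 UMIs, 0.73 and 2.76 CPM) and Esrp1 (1 and 43 UMIs, 0.04 and 1.15 CPM) were more frequent in Zeb2KO AMs, with ratios of 3.79 (counting interval 2.33 to 6.47) and 31.7 (5.39 to 1279), but both remained under the 5 CPM floor. Tjp1 had 13 UMIs in WT and 6 in Zeb2KO AMs.

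RNA from lung epithelium was present in both AM libraries. All 11 of its markers had UMIs in both, with a summed level of 106 CPM in WT and 91.3 CPM in Zeb2KO, and its part in the levels of the members was not tested. Scgb1a1, a club-cell secretory gene, made up most of it at 65.2 CPM and 54.3 CPM, and Sftpc of type II cells was at 22.8 and 24.4 CPM. Without the 1% of cells highest in those markers, the Zeb2KO AMs held 346 CPM of Epcam, 242 CPM of Krt8 and 38.9 CPM of Krt18.

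Genes of the neutrophil list moved with these members in lung. The 6 genes summed to 37.6 CPM in WT and 23830 CPM in Zeb2KO AMs, and all 6 had UMIs in Zeb2KO. S100a8 made up 22.9 CPM in WT and 14190 CPM in Zeb2KO, and S100a9 0.04 and 9361 CPM. Csf3r was at 12.02 and 96.0 CPM and Cxcr2 at 2.70 and 178 CPM. S100a8 was detected in 7.57% of WT and 94.9% of Zeb2KO AMs without thinning, whereas the neutrophil markers Ly6g and Retnlg had 0 UMIs in WT and 12 and 5 UMIs in Zeb2KO. Without the 11 Zeb2KO AMs that held a UMI of Ly6g or Retnlg, Epcam was at 346 CPM, Krt8 at 242 CPM and Krt18 at 38.7 CPM, and the same 3 members were called. Leaving out 11 of 6251 cells could hardly move these sums, so it gives no measure of the part of cells with neutrophil genes. That part was not tested.

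At the level of single cells, counts were thinned to 1000 UMIs per cell so that libraries of unlike depth could be compared. In the SM WT library 258 macs were too shallow for this and were left out, and no mac of another library was. Epcam was then detected in 24.3% of Zeb2KO AMs (exact 95% interval 23.2 to 25.4) and in 2.19% of WT AMs (1.86 to 2.57). Krt8 was detected in 13.9% of Zeb2KO AMs (13.1 to 14.8) and in 2 of 6974 WT AMs. Krt18 was found in 2.69% (2.30 to 3.12), Cdh1 in 7.61% against 4.03% in WT, and Krt19 in 34.4% against 38.4% in WT.

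Without thinning, 64.6% of Zeb2KO AMs (median 5683 UMIs) had an Epcam UMI and 34.7% a Krt8 UMI, against 7.93% and 0.10% of WT AMs (median 3587 UMIs). Among the Epcam-positive Zeb2KO AMs, 1996 of 4035 held 3 or more Epcam UMIs, and the highest cell held 34. WT cells rarely went beyond 1 (467 of 553 Epcam-positive cells had exactly 1). The clusters of other cell types in the Zeb2KO lung held only 25 cells (median 3537 UMIs), of which 4 had an Epcam UMI after thinning (16.0%, 4.54 to 36.1), so the background share in lung is poorly known.

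**Figure D1:**
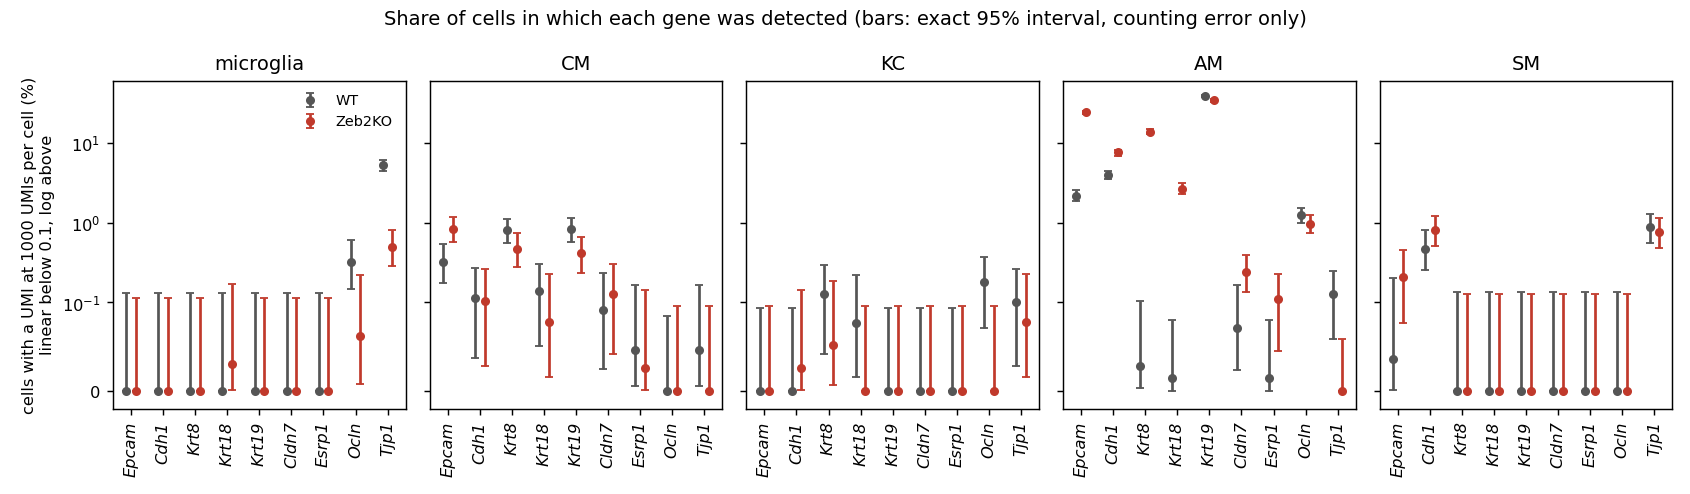
Share of macs with a UMI of each member after thinning to 1000 UMIs per cell, for 5 tissues, with points for WT (grey) and Zeb2KO (red), bars as exact 95% intervals, and an axis that is linear below 0.1% and logarithmic above. Epcam, Cdh1, Krt8 and Krt18 separate upward in Zeb2KO AMs and Krt19 downward. Epcam also separates upward in CMs, at low shares, and Tjp1 separates downward in microglia.

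Single AMs carried more of the 9 genes at once in Zeb2KO. Of 6251 cells, 404 had a UMI of none of them, 1486 of 1, 1731 of 2, 1453 of 3, 863 of 4, 291 of 5, 22 of 6 and 1 of 7 or more. Of 6974 WT AMs, 1264 had none, 4260 had 1, 1327 had 2, 122 had 3 and 1 had 4. Krt18 was mostly seen in cells with Krt8. Of the 819 Zeb2KO AMs with a Krt18 UMI, 82.5% also had a Krt8 UMI, against 34.7% of all Zeb2KO AMs. In the other direction, 31.2% of the 2167 cells with a Krt8 UMI had a Krt18 UMI, against 3.50% of the cells without Krt8. Of the cells with a Krt8 UMI, 86.8% had an Epcam UMI. These shares are not thinned, and deeper cells have more of every gene. At 1000 UMIs per cell, 1519 Zeb2KO AMs counted as having Epcam and 4732 as lacking it, whereas 4035 held an Epcam UMI before thinning. Many cells counted as lacking Epcam thus did hold it, which makes the 2 sets more alike. At 1000 UMIs per cell, Krt8 was detected in 20.01% (18.03 to 22.1) of cells with an Epcam UMI and in 11.98% (11.1 to 12.9) of those without. Cdh1 did not follow this pattern, at 6.85% (5.63 to 8.24) with and 7.86% (7.11 to 8.67) without an Epcam UMI, nor did Krt19, at 33.8% and 34.6%.

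The same split, with the same limit, was made for the genes that the study tied to ZEB2 loss. In Zeb2KO AMs Ms4a1, which encodes CD20, was detected in 3.88% (2.97 to 4.98) of cells with and 1.94% (1.57 to 2.38) of cells without an Epcam UMI. Cd101, an inhibitory surface receptor, was detected in 5.53% (4.43 to 6.80) and 4.25% (3.69 to 4.86), and Zeb2 transcript in 40.6% (38.1 to 43.1) and 33.9% (32.6 to 35.3). Itgam (CD11b) was detected in 4.35% (3.38 to 5.49) and 3.23% (2.75 to 3.78), and Itgax (CD11c) in 40.4% and 40.2%. Siglecf stood at 6.85% (5.63 to 8.24) with and 7.46% (6.73 to 8.25) without an Epcam UMI, intervals that overlap, and at 2000 UMIs per cell it was lower in cells with an Epcam UMI, at 12.1% against 15.1%, with intervals that do not overlap.

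**Figure D2:**
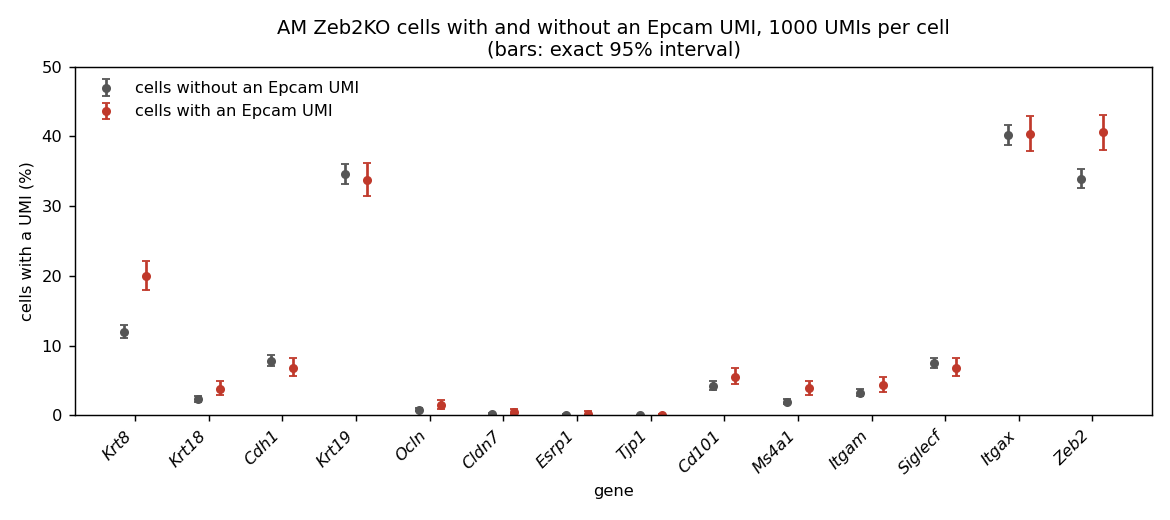
Share of Zeb2KO AMs with a UMI of each gene, among cells with (red) and without (grey) an Epcam UMI, at 1000 UMIs per cell, with exact 95% intervals as bars. Krt8 and Zeb2 lie higher in the cells with Epcam, whereas Cdh1, Krt19 and Itgax overlap.

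The members were not spread evenly over the Zeb2KO AMs. Clusters were built without the members, and a cluster set against the rest is a description and no test. The largest cluster (cluster 0, 3302 cells, 52.6% of the library, absent from WT) held 91.8% of the Krt8 UMIs, 92.2% of the Krt18 UMIs and 78.2% of the Epcam UMIs, at 358, 57.8 and 437 CPM. The next largest (cluster 2, 1735 cells, 27.6%) held Krt8 at 9.70 CPM, Krt18 at 1.03 CPM and Epcam at 79.7 CPM. Cdh1 had 73.8 CPM in cluster 0 and 92.9 CPM in cluster 2, and Krt19 had 464 and 647 CPM. Both were thus lower in cluster 0, where Epcam, Krt8 and Krt18 were far higher. Zeb2 transcript was at 569 CPM in cluster 0 and 266 CPM in cluster 2, and Ms4a1 at 27.7 and 3.23 CPM. The leading genes of cluster 0 included Ceacam10, Cd177, Krt6b, Stfa1, Tarm1 and S100a9. The neutrophil list summed to 33590 CPM there and 1058 CPM in cluster 2, and the AM markers to 29070 and 12270 CPM.

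The balance of Epcam and Krt8 differed between the smaller clusters. In cluster 6 (412 cells, led by Lcn2) Epcam was at 484 CPM and Krt8 at 94.4 CPM, and this cluster had the most Cldn7, at 19.1 CPM (13.7 to 25.8). In cluster 8 (221 cells, led by C1q genes) Epcam was at 334 CPM with Krt8 at 24.7, Cdh1 at 26.9 and Krt18 at 5.05 CPM. The cluster led by the cell-cycle gene Ube2c (cluster 5, 283 cells) had 237 CPM of Epcam and 178 CPM of Krt8 in Zeb2KO, and Epcam was at 11.4 CPM in the 202 WT cells of that cluster.

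**Figure D3:**
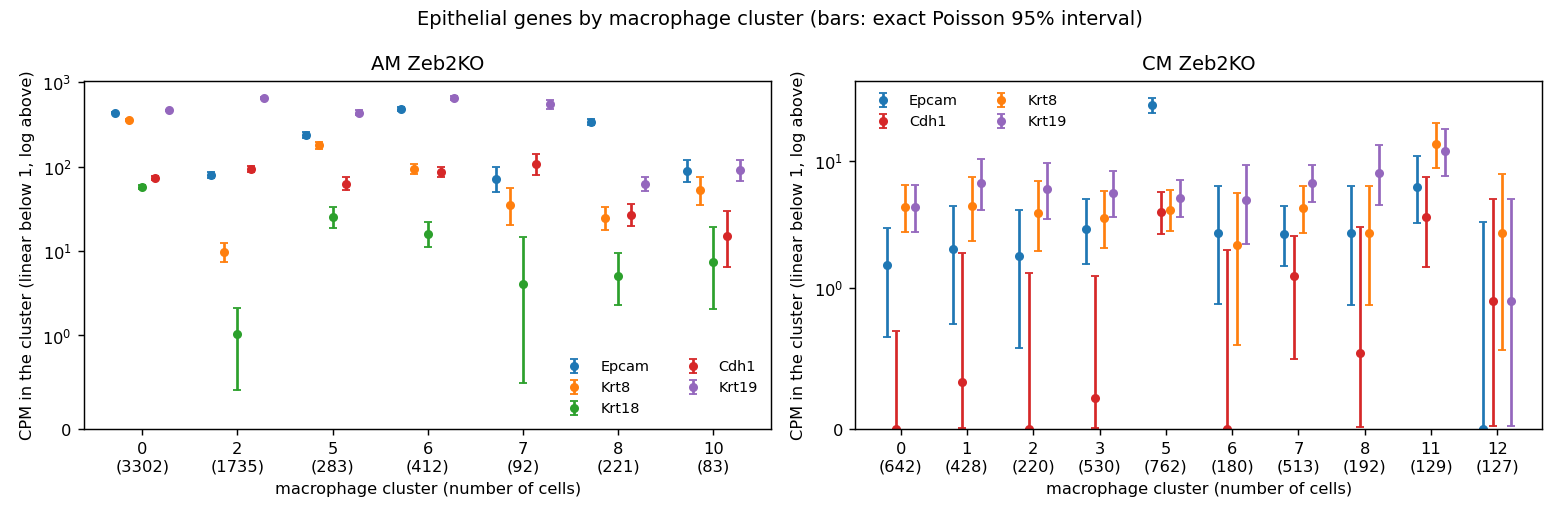
Level of Epcam, Cdh1, Krt8 and Krt19 (and Krt18 for lung) in each mac cluster of at least 80 cells of the AM Zeb2KO and CM Zeb2KO libraries, with bars as exact Poisson 95% intervals and an axis that is linear below 1 CPM and logarithmic above. In lung, Krt8 and Krt18 span far more between clusters than Cdh1 and Krt19, and in colon cluster 5 stands out for Epcam at 27.5 CPM while its Krt8 and Krt19 do not.

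In CMs 3 of the 9 members were considered and none was called, where 1.45% of all genes considered were called higher and 0.651% lower. Epcam was at 3.58 CPM (3.04 to 4.19) in WT and 7.63 CPM (6.76 to 8.58) in Zeb2KO, a ratio of 2.13 (1.74 to 2.61) and a log2 ratio of 0.91. Krt8 went the other way, at 7.95 and 4.53 CPM, as did Krt19 (7.90 and 5.85 CPM) and Krt18 (1.30 and 0.52 CPM). The fibroblast cluster left out of the macs held Krt8 at 6.60 CPM (8 UMIs) in WT and 2.08 CPM (2 UMIs) in Zeb2KO. Its Krt19 was at 6.60 and 6.24 CPM and its Epcam at 4.95 and 3.12 CPM, each from 8 or fewer UMIs. The part of free RNA in the CM levels of these genes was not tested. Colon epithelial cells were present in these sorts, and all barcodes together held 28.2 and 24.7 CPM of Epcam and 43.3 and 38.7 CPM of Krt8.

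Epcam and Krt8 were also counted in the small cluster of colon epithelial cells that was left out of the macs (12 WT and 11 Zeb2KO cells, led by the goblet-cell genes Spink4, Agr2 and Muc2 among others). It held 445 Epcam and 300 Krt8 UMIs in WT (interval of the ratio 1.28 to 1.72), and 1.06 (0.91 to 1.24) Epcam UMIs for each Krt8 UMI in Zeb2KO. The WT macs held 0.45 (0.37 to 0.55) Epcam UMIs for each Krt8 UMI, and the Zeb2KO macs outside cluster 5 held 0.59 (0.44 to 0.78). Cluster 5 was singled out after its values were seen. In it (762 cells, 18.6% of the Zeb2KO library) there were 6.63 (4.50 to 10.1), with 199 Epcam UMIs against 30 of Krt8. The Krt8 level of cluster 5, 4.15 CPM, lay near the 4.62 CPM of the other Zeb2KO macs.

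In cluster 5 Epcam was detected in 96 of the 762 cells, at 27.5 CPM (23.8 to 31.6), which is 71.6% of all Epcam UMIs of the Zeb2KO CMs. Cdh1 was at 4.01 CPM (2.69 to 5.76) there and at 0.68 CPM in the other Zeb2KO macs. This cluster was led by Ms4a1, at 146 CPM, and had 719 CPM of Zeb2 transcript and 14.2 CPM of Zeb1. The summed level of 14 colon epithelial markers was 86.9 CPM in WT and 54.0 CPM in Zeb2KO macs, and without the 1% of cells highest in them, Epcam in Zeb2KO stood at 7.63 CPM. At 1000 UMIs per cell Epcam was detected in 0.32% (0.18 to 0.54) of WT and 0.83% (0.57 to 1.17) of Zeb2KO CMs, against 2 of 221 and 0 of 213 cells in the clusters of other cell types.

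SMs expressed few of these genes. Krt8, Krt18, Krt19, Cldn7, Esrp1 and Ocln had 0 UMIs in both SM libraries, where a count of 0 allows up to 0.40 CPM in WT and 0.33 CPM in Zeb2KO. Epcam had 2 UMIs in WT (0.27 CPM) and 27 in Zeb2KO (2.98 CPM, 1.96 to 4.33), with a counting interval of the ratio from 2.78 to 96.1, yet under the 5 CPM floor. Of those 27 UMIs, 23 were in cluster 4 (691 cells, 9.77 CPM), a Zeb2KO cluster with 526 CPM of Ms4a1 and 39.9 CPM of Zeb1 that was singled out after its values were seen. Epcam was also seen in the B-cell clusters of spleen, at 9.18 CPM in cluster 3 of Zeb2KO and 7.93 CPM in WT. All 5 B-cell markers in the tables had UMIs in the SM libraries, with a sum of 132 CPM in WT and 88.9 CPM in Zeb2KO macs, and their part in the Epcam counts was not tested. At 1000 UMIs per cell Epcam was detected in 6 of 2859 Zeb2KO SMs (0.21%, 0.077 to 0.46) and in 2 of 677 cells of other types (0.30%, 0.036 to 1.06). Most of those other cells were in the B-cell clusters 3 and 6 (368 and 143 cells), the first of which held Epcam itself, so they give no measure of free RNA. Cdh1 was at 3.09 and 4.30 CPM, and Tjp1 at 11.4 CPM (9.13 to 14.1) and 8.38 CPM (6.61 to 10.5). Only Tjp1 of the 9 was considered in SMs, and it was not called. Of all genes considered there, 3.45% were called higher and 1.43% lower.

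In KCs no member reached 5 CPM in WT or Zeb2KO, so none was called, while 4.2% of genes considered were called higher and 1.43% lower. Epcam had 3 UMIs in WT and 9 in Zeb2KO, Cdh1 1 and 5, Krt8 12 and 11, and Esrp1 none. Krt18 had 16 and 3 UMIs and Ocln 42 and 19. The Nr1h3fl/fl WT library had 24 UMIs of Krt18 and 14 of Ocln, so the Ocln ratio to the Zeb2fl/fl WT library was 0.43 (0.22 to 0.81) without any Zeb2 deletion and 0.42 (0.23 to 0.74) with it. Tjp1 had 35 and 45 UMIs in the macs, and at 1000 UMIs per cell it was detected in 8 of 400 and 29 of 586 cells of the other types of these sorts, against 0.10% and 0.078% of KCs. Between the 2 WT KC libraries 0.705% of genes considered were called higher and 1.11% lower in the Nr1h3fl/fl library. No member reached 5 CPM in that comparison.

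Of all genes considered in microglia, 4.88% were called lower and 5.01% higher. Tjp1 there was the only member called lower in any tissue. It was also the only member considered there, so no other could be called. It had 653 UMIs in WT microglia (53.1 CPM, 49.1 to 57.3) and 76 UMIs in Zeb2KO microglia (4.50 CPM, 3.55 to 5.64), which is 11.8 times less, at a log2 ratio of -3.30. Tjp1 was detected in 5.31% (4.51 to 6.20) of WT microglia and 0.49% (0.28 to 0.80) of Zeb2KO microglia at 1000 UMIs per cell. Median depths were 4201 and 4955 UMIs. The 2 large WT clusters held 55.6 and 52.4 CPM of Tjp1, and the 3 large Zeb2KO clusters (clusters 2, 3 and 4) held 4.62, 3.59 and 5.26 CPM. The 11 Zeb2KO cells that fell in the WT cluster 1 held 4 Tjp1 UMIs (60.4 CPM, 16.5 to 155). Of the other members, Ocln was at 2.44 and 1.84 CPM and none of the rest had more than 3 UMIs, in 2825 WT and 3234 Zeb2KO cells.

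The 11 libraries could be ordered by Tjp1 as microglia WT (53.1 CPM), SM WT (11.4), SM Zeb2KO (8.38) and microglia Zeb2KO (4.50), with the remaining libraries at or below 1.78 CPM. The counting intervals of the 2 SM libraries overlapped each other, and those of microglia Zeb2KO and SM Zeb2KO did not.

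To ask whether a member shifted in common over tissues, the 5 pairs were fitted together with tissue as a block. By the quasi-likelihood test of edgeR, 0 of 12073 genes were called at an adjusted p under 0.05 (0%). Unadjusted, 1462 genes had a p under 0.05, and DESeq2 called 372. In this fit 5 members passed the filter on low counts. Epcam had a common log2 fold change of 2.63 (edgeR adjusted p = 0.248), and DESeq2 gave an adjusted p of 0.00105, with a range of 0.00105 to 1 over 8 alternatives. It was higher in 5 of 5 tissues, but microglia had 0 and 1 UMI and KCs 3 and 9 UMIs (interval of the ratio 0.70 to 16.0), and with all barcodes CMs turned to a log2 ratio of -0.18 and the common log2 fold change was 1.62. Cdh1 had 0.82 (edgeR adjusted p = 0.284), higher in 4 of 4 tissues with a UMI, but outside AMs every interval of the ratio included 1 (0.95 to 2.32 in CMs, 0.52 to 220 from 1 and 5 UMIs in KCs, and 0.81 to 2.44 in SMs). Krt8 had 1.90 (edgeR adjusted p = 0.804), higher in AMs alone among the 3 tissues where it differed, and DESeq2 gave 0.41 and the fit without the tissue block 4.76.

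Tjp1 had a common log2 fold change of -1.23 (edgeR adjusted p = 0.454) and was lower in 4 of 5 tissues, with -0.55 without the microglia pair, -0.72 with all barcodes and -2.13 without the tissue block. Ocln had -0.67 (edgeR adjusted p = 0.585), lower in 4 tissues and equal at 0 in spleen. Its interval of the ratio included 1 in microglia (0.44 to 1.29) and in CMs (0 to 1.29, from 5 and 0 UMIs). In KCs the ratio of 0.42 lay near the 0.43 between the 2 WT libraries. For AMs the log2 ratio was -0.23, and TMM factors moved that pair by 0.27. An exact sign-flip permutation test, two-sided, gave Epcam p = 0.062, the smallest p that 5 pairs allow, and Cdh1, Ocln and Tjp1 p = 0.125. For Cdh1 and Ocln 1 pair was equal, so this was the smallest p that the test could give them. Without the lung or the colon pair Epcam was too low to be fitted.

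A wider list of 39 epithelial genes, of which 38 were analysed, was set beside the members. In AMs 13 of the 38 were considered. Of these, 8 were called higher and 1 lower, where 5.03% and 7.19% of all genes considered were called. A gene under 5 CPM in WT was considered only where Zeb2KO brought it over that floor, so that it had to be higher, and in AMs this held for Crb3, Tjp3 and St14 among others. The counts in this list are therefore a description and are not read against the share of all genes. Those higher included Cldn1 (5.68 to 58.9 CPM), the polarity gene Crb3 (0.15 to 12.05), the ZO-3 scaffold gene Tjp3 (0.58 to 29.6), plakoglobin Jup (43.5 to 100.3), the membrane protease matriptase St14 (0.15 to 9.31), and its inhibitors Spint1 (30.6 to 82.0) and Spint2 (10.6 to 141). The one lower was Ovol2, a transcription factor known to repress Zeb1, at 10.1 CPM in WT and 2.07 CPM in Zeb2KO. Of the 4 further keratins on the list, Krt14 and Krt20 had 0 UMIs in both AM libraries and Krt5 and Krt7 stayed under 1 CPM. The epithelial regulators Grhl2 and Elf3 had 1 UMI each in both.

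In the tissues where the 9 members were low, some of these genes were still called. In KCs 6 of the 38 were considered, and 4.2% of all genes considered were called higher. Of the 38, 5 were called higher and none lower, namely Spint1 (0.17 to 18.9 CPM), Spint2 (2.59 to 50.3), the tricellular-junction gene Lsr (1.40 to 9.47), the junctional adhesion gene F11r (18.9 to 45.3) and Tjp3 (1.23 to 5.57). All of these but F11r were under the floor in WT. In SMs 7 of the 38 were considered, and 3.45% of all genes considered were called higher. Of the 38, 4 were called higher, all from under the floor in WT. Among them were Spint1 at 3.09 and 66.6 CPM, Spint2 at 3.90 and 18.6, and Tjp3 at 0.81 and 6.73 CPM. In CMs 7 of the 38 were considered. Lsr (5.25 to 12.7 CPM) and Spint2 (5.11 to 13.7) were called higher, where 1.45% of all genes considered were. In microglia 7 of the 38 were considered. Of these, 1 was called higher and 1 lower, where 5.01% and 4.88% of all genes considered were. Tjp3 was higher, from 3 UMIs to 574 (0.24 to 34.004 CPM), and Marveld2, the tricellulin gene, was lower, from 9.83 to 3.08 CPM.

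Spint2 was thus called higher in 4 of 5 tissues and Tjp3 in 4 of 5, whereas Krt8 and Krt18 were called in 1. Tjp3 was under 5 CPM in every WT library, Spint2 in WT KCs and SMs, and Krt8 and Krt18 in WT AMs. There they could not be called lower, so these counts are a description. The common log2 fold change of Spint2 was 2.99 (edgeR adjusted p = 0.179), higher in 5 of 5 tissues, and DESeq2 gave an adjusted p of 3.81e-08, with a range of 3.81e-08 to 1 over 10 alternatives. The list that holds Spint2 was chosen with earlier results of these data known. Between the 2 WT KC libraries only 2 of the 38 were considered and none was called. Tjp3 was called higher in microglia, KCs, AMs and SMs, and Tjp1 was called lower in microglia, where it was highest in WT. Whether these changes differed between tissues was not tested.

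**Figure D4:**
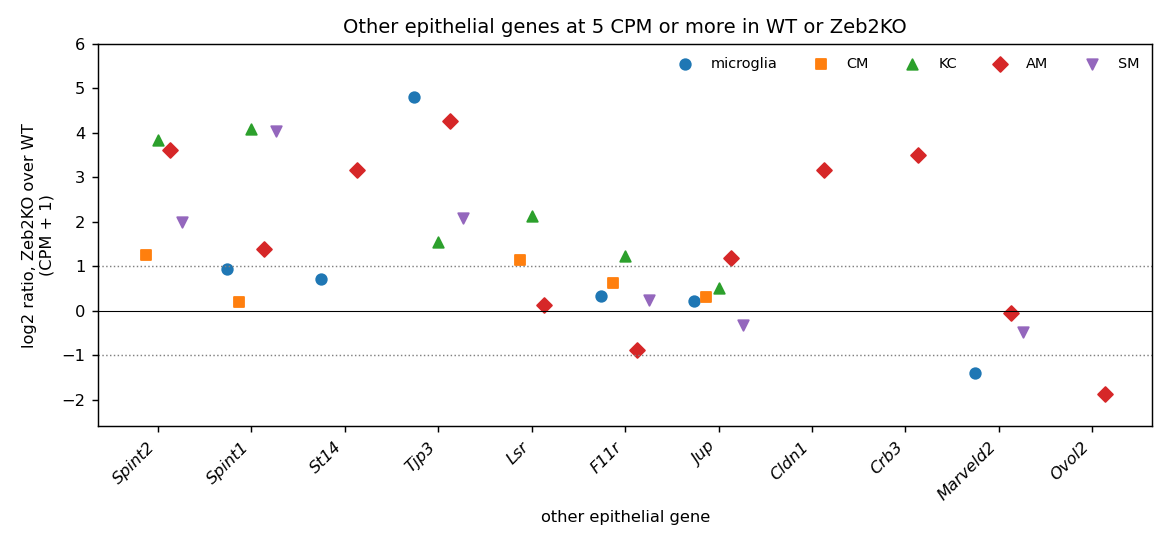
Log2 ratio of CPM plus 1, Zeb2KO over WT, for 11 other epithelial genes called in at least 1 tissue, with 1 symbol per tissue, shown where the gene reached 5 CPM, and with dotted lines at a log2 ratio of 1 and -1. Spint2, Spint1 and Tjp3 lie above the upper line in several tissues, and Cldn1, Crb3 and Ovol2 have a symbol for AM alone.

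Among the factors that repress these genes, Zeb1, the close relative of Zeb2, was higher in all 5 Zeb2KO libraries. It was called in microglia (25.9 to 69.1 CPM), KCs (5.52 to 12.2) and SMs (5.78 to 17.98), and stood at 2.49 and 5.19 CPM in CMs and at 9.33 and 13.7 CPM in AMs. In KCs its log2 ratio of 1.02 was just past the size needed, and with TMM factors it was 0.999 and the call was lost. Its common log2 fold change was 1.21 (edgeR adjusted p = 0.138, unadjusted p = 9.72e-05), and DESeq2 gave an adjusted p of 2.90e-07, with a range of 2.90e-07 to 1 over 10 alternatives. Zeb1 too was listed with earlier results of these data known.

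The genes whose levels ran most alike the members' over the 11 libraries were taken by Pearson's r of log2(CPM + 1) among 8024 genes, as a description. For Krt8 they were Mustn1 (r = 0.96), Krt18 (0.96), Tarm1 (0.95), Auts2 (0.95) and AA467197 (0.93), and for Krt18 Map1b (0.98), Auts2 (0.97), Krt6b, Stfa1 and Cyp21a1 (0.96 each), most of them near 0 outside the Zeb2KO AMs. For Epcam they were Gyg, G0s2, Best1, Mvp and C77080 (0.95 each). For Cdh1 they were 1190005I06Rik (0.99), Myh9 and Net1 (0.98 each), Plscr1 and Cd2 (0.97 each). For Krt19 Atp6v0d2 and C77080 (0.99 each) led, and for Tjp1 Atg12 (0.95) and Npnt (0.94), the latter at 27.2 CPM in WT and 4.86 CPM in Zeb2KO microglia. The points are the same 11 libraries throughout, and 6 members reached the level needed for this comparison.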

How the data were processed

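Per the labels and methods, the authors processed 10x reads with Cell Ranger on mm10 and deposited 1 table of raw UMI counts per library (11 libraries, 27998 genes) (KCs and AMs on a NextSeq500, the others on a HiSeq), and those counts were used as deposited. Total counts per library were 11133411 to 47400786. Cells beyond 3 median absolute deviations in UMIs, genes or mitochondrial share were removed (4.66% to 9.22%). Scrublet called at most 0.0801% of barcodes doublets, so leaving out the 5% highest scores served as an alternative. Cells were clustered by tissue (scanpy 1.11.5, leidenalg 0.10.2) without the members and listed genes, and clusters of other cell types were left out by marker limits set after the clusters were seen. The methods name the organs sorted in the plural, but the number of animals behind each library is not given in the sources used here. Folds, shares and calls are as described in the report. The summed counts of 10 libraries were tested with edgeR 4.0.16 (TMM, filterByExpr by genotype, tissue block) and DESeq2 1.42.0, with Benjamini-Hochberg adjustment, after a test on simulated data. Alternatives were other cells, scalings, pseudocounts, floors, depths and leaving out each pair. Named genes were the members and any other listed epithelial gene called in at least 1 tissue, and, for members of at least 20 CPM in a library, the genes most like them. Members and lists were chosen with earlier results of these data known. One listed gene, Patj, was not analysed here. Some genes and a sequence are not reported here.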

Additional observations from a re-analysis of the deposited data

Results flagged for a closer look

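Fn1, a matrix gene on the mesenchymal list, was called in opposite directions in 2 tissues, with a log2 ratio of 2.51 in microglia (1 and 87 UMIs) and -1.81 in AMs (318 and 90.4 CPM), and the difference was not tested. With TMM factors Fn1 in microglia fell under the 5 CPM floor. Fn1 also differed between the 2 WT KC libraries, at 247 CPM in the Zeb2fl/fl and 1.59 CPM in the Nr1h3fl/fl library. KC cluster 14, with Fn1 among its leading genes, held 68 cells of the first and 1 of the second. Its part in this difference was not tested.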

How the results depend on the processing

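Of 378 recomputed member ratios, 371 stayed on the same side of the call and none of the called members lost its call or reversed. The number of members called higher in AMs was 5 instead of 3 with a floor of 1 CPM, which brought in Cldn7 and Esrp1. With that floor SMs gained 1 (Epcam), with a pseudocount of 0.1 CPM CMs gained 1 (Epcam, log2 ratio 1.07), and with all barcodes KCs gained 1 (Tjp1, log2 ratio 1.02). With all barcodes the Epcam log2 ratio of CMs was -0.18. Shares rose with depth in Zeb2KO AMs. At 2000 UMIs per cell they were 40.9% for Epcam, 22.1% for Krt8 and 5.47% for Krt18, and without thinning 64.6%, 34.7% and 13.1%. The difference in the share of cells with Cd101, with minus without an Epcam UMI, in WT AMs was 0.40 percentage points at 2000 UMIs and had the opposite sign at 1000. Over the 5 pairs, DESeq2 called 256 genes higher and 116 lower where edgeR called 0 of each, edgeR without a filter on low counts called 3 higher, and leaving out a pair gave 0 to 1 higher (1 without the spleen pair) and 0 lower. The causes were not tested. By replicate number, no paired analysis was possible because each tissue and genotype has 1 library. The 5 pairs were formed by tissue instead, and a fit without the tissue block also gave 0 calls. The removal of AMs with a UMI of Ly6g or Retnlg was chosen after seeing the data. Depth limits the low members, where a count of 0 allows up to 0.40 CPM in the shallowest library.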

Other observations

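Krt8 and Krt18 were 2 of 6 keratins that reached 5 CPM in any library, of 51 keratin genes in the tables. The other keratins were looked at after the values were seen. Krt6b, a keratin of stressed and stratified epithelia on chromosome 15 (101676023 to 101680287), had 0 UMIs in WT AMs, 2128 in Zeb2KO AMs (57.1 CPM) and 0 in the other 9 libraries. Krt79, on the same chromosome (101929332 to 101940324) and a marker of AMs, was lower, at 575 CPM in WT and 159 CPM in Zeb2KO AMs, with 0 UMIs in every other library. Keratin genes of chromosome 15 thus differed in opposite directions in 1 library pair. Krt10, on chromosome 11, was between 0.59 and 21.2 CPM in all libraries.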
